A study of Homo sapiens with 8 samples.

Results

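The minichromosome maintenance (MCM) family was followed through 8 arrays of MDA-MB-231, an established triple-negative human breast cancer line with mesenchymal features. The members were chosen by gene symbol: MCM2, MCM3, MCM4, MCM5, MCM6, MCM7, MCM8, MCM9, MCM10 and MCMBP. All 10 had a row with 1 symbol on the Affymetrix Human Gene 2.1 ST array, among 22109 genes tested, and each had exactly 1 such row. Total RNA was taken after 24 h from untreated cells (3 samples) and from cells given a lower (3 samples) or a higher (2 samples) dose, called low and high. The sample titles and the treatment protocol name a crude ethanol extract of wild yam root, at 15 µg/mL for the low dose and 30 µg/mL for the high dose, both chosen as sublethal. In the source names, however, the low samples are listed under Boswellia serrata extract (128 µg/mL), and the high samples under another agent, 3-O-acetyl-β-boswellic acid (46 µg/mL). The groups hold the same samples under either description and can be compared, but what the treated cells received is unsettled, and the dose names serve only as names of groups. No solvent is named for the controls, which are labelled as having had no treatment. The labels do not say that replicates were separate cultures, so p-values cover only the spread among these 8 samples, which may be technical in part. All levels are deposited log2 expression values. A level of 1 gene is not set against that of another, because their probes differ.

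MCM2 to MCM7 form the ring-shaped hexamer that the origin recognition complex, CDC6 and CDT1 load onto DNA in G1 phase, which licenses replication origins. In S phase the kinase CDC7 with its DBF4 subunit, together with CDC45 and the GINS proteins, turns the loaded rings into the moving replicative helicase, and MCM10 acts at the step in which that helicase starts to unwind DNA. MCM8 and MCM9 form a related helicase that acts in homologous recombination and in the repair of DNA crosslinks, and MCMBP is a chaperone of newly made MCM subunits. Transcription of many family members is driven by E2F factors as cells pass from G1 into S phase, and cancer lines that divide quickly usually carry much of their messenger RNA.

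Because several of these genes are textbook E2F targets, their promoters were searched for 4 forms of the E2F-type motif (TTTCCCGC, TTTGGCGC, TTTCGCGC and TTTGCCGC) and for the letters CCAAT of the CCAAT box, on both strands. Each searched stretch ran from 250 bases before to 50 bases after a RefSeq start on GRCh38.p14. Promoters were held for 8 members; MCM4 and MCM5 had no entry. The stretches below show 6 members, with 190 bases before the start and 20 bases from it on, written 5′ to 3′ along the gene's strand. Capitals mark an E2F-type form on either strand. A run of capitals longer than a single form holds a pair that overlap on opposite strands.

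MCM2 promoter, chr3:127598221-127598430, plus strand: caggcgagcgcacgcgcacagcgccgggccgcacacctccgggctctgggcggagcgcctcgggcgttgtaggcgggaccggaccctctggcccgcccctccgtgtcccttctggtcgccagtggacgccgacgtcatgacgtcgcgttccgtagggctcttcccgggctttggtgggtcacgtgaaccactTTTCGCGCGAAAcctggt
MCM3 promoter, chr6:52284723-52284932, minus strand: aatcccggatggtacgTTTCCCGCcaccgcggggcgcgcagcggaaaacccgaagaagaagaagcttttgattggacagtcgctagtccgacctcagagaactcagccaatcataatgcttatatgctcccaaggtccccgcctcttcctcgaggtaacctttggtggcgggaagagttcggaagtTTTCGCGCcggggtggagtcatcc
MCM6 promoter, chr2:135876424-135876633, minus strand: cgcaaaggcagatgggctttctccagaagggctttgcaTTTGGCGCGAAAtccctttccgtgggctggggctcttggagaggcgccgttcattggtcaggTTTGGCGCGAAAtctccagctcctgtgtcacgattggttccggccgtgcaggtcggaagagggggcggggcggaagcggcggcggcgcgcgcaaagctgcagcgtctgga
MCM7 (start 1) promoter, chr7:100101378-100101587, minus strand: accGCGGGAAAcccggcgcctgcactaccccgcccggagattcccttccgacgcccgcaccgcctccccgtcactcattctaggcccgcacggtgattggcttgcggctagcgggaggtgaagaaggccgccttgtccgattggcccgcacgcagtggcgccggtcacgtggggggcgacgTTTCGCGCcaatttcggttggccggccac
MCM8 promoter, chr20:5950462-5950671, plus strand: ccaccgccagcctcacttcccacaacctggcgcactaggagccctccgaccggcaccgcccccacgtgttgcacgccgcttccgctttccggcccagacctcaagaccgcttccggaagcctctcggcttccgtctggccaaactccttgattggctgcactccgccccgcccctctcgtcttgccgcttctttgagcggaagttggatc
MCM10 promoter, chr10:13161368-13161577, plus strand: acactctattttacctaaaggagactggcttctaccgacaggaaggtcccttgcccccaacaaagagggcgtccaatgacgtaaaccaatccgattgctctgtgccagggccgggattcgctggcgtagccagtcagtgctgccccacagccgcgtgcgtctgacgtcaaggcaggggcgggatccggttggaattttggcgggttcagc

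MCM2, MCM3, MCM6, MCM7, MCM8 and MCMBP held at least 1 E2F-type form at a start. Over all 35116 promoters of the same length, 3.31% held one, and 3.99% of 27305 genes held one at any of their starts. MCM6 carried 4 matches, as overlapping pairs at -152 and -148 and at -90 and -86, counted from the start to the first base of the match. MCM3 carried one at -174 and one at -4, and MCM7 carried one at -187 and one at -9 of the first of its 3 annotated starts. In MCM2 the overlapping pair lay just past the start, at 3 and 7. The match of MCM8, at 27 on the opposite strand, lies beyond the stretch shown, and that of MCMBP lay at -9 of the second of its 2 starts. MCM9 and MCM10 held none of the 4 forms, which says only that these letters are not in the windows searched. CCAAT letters were present in MCM3, MCM6, MCM7, MCM8, MCM9 and MCM10, where 39.7% of genes held them at any of their starts. A match of letters is a description and not evidence that a factor binds there.

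**Figure D1:**
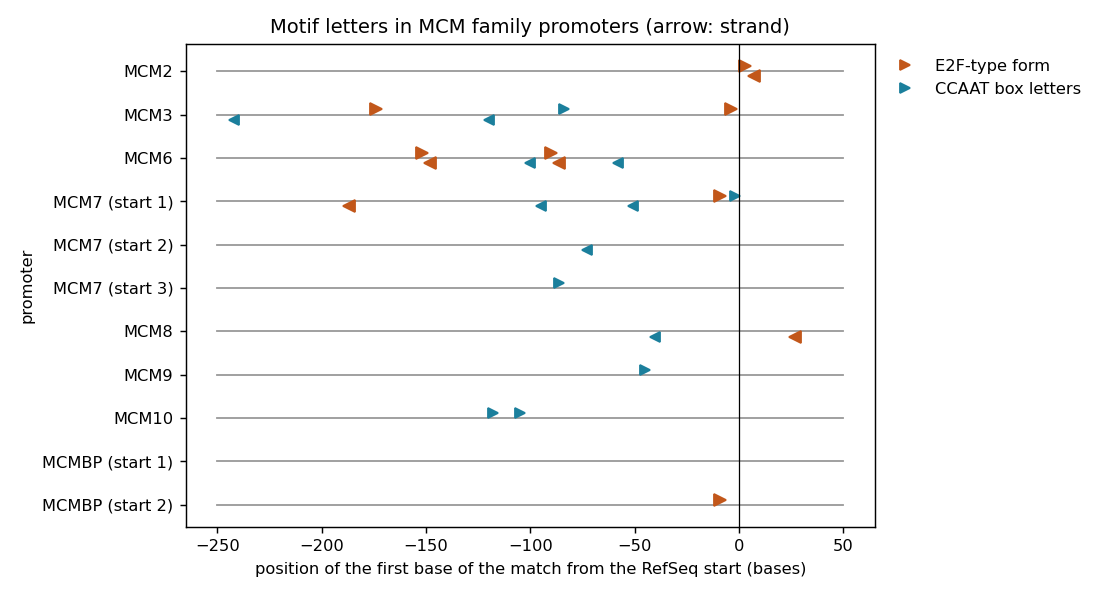
Positions of the first base of each match, in bases from the RefSeq start at 0, for E2F-type forms (orange) and CCAAT letters (blue) in the 11 promoters of 8 members, with arrows for the strand. MCM6 has 4 E2F-type matches upstream of its start, and MCM9 and MCM10 have none.

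By the 75th percentile of the level over all genes, 3 of the 8 arrays stood below the rest, with 4.73 in control 3, 4.54 in low 3 and 4.54 in high 2 beside 4.80 to 4.94. By the median 4 arrays stood low, both high arrays among them: 2.72 in control 3, 2.69 in low 3, 2.71 in high 1 and 2.68 in high 2, beside 2.82 to 2.83. Arrays of 1 group correlated at 0.972 to 0.994 over all genes in 7 pairs. VIM (8.68 to 9.10), MSN (9.84 to 10.39), CD44 (7.63 to 8.85) and AXL (8.55 to 9.67) were among the highest genes, while the epithelial genes EPCAM (4.40 to 5.58), KRT8 (2.97 to 4.42) and CDH1 (2.85 to 3.33) were above the median of all genes by their mean. ESR1 (1.60 to 2.18) and PGR (1.17 to 1.65), the hormone receptor genes that the line is known to lack, lay below every array's median. Leukocyte, endothelial and liver markers with a row (PTPRC, CD3E, CD14, VWF, CDH5, ALB and APOA1) lay between 0.94 and 2.63. TGFBI set control 3, at 2.86, apart from controls 1 and 2, at 5.49 and 5.66, and beside the high arrays, at 3.19 and 3.24. The table has no measure of background.

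MCM10, MCM8, MCM6 and MCM3 fell at the low dose and MCM6, MCM10 and MCM3 at the high dose, while MCM2, MCM4, MCM5, MCM7, MCM9 and MCMBP were called at neither. At the low dose the mean of 10 of 10 members lay below that of the controls, against 57.4% of all genes, and for 9 of 10 every low array lay below every control array, against 13.0% of all genes. Of the members, 4 were called lower at an adjusted p under 0.05 in limma's test, against 1.81% of all genes, and none was called higher. The members' median change was -0.73, where the median over all genes was -0.04. At the high dose the mean of 10 of 10 members was lower than in controls (67.4% of all genes) and 9 of 10 did not overlap with the controls (22.9% of all genes). Here 3 members were called lower, against 0.389% of all genes, and none higher, with a median change of -0.83 beside -0.12 over all genes. Calls were more frequent among genes with a mean level at or above the median, where all members lay. In a fit of those genes alone 5 members were called lower at the low dose, against 4.51% of these genes. At the high dose 4 were, against 1.30%. The treated groups share the same controls, so the 2 comparisons are not independent of each other. Arrays of whole cultures cannot tell fewer cells that express a gene from less of its RNA per cell.

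**Figure D2:**
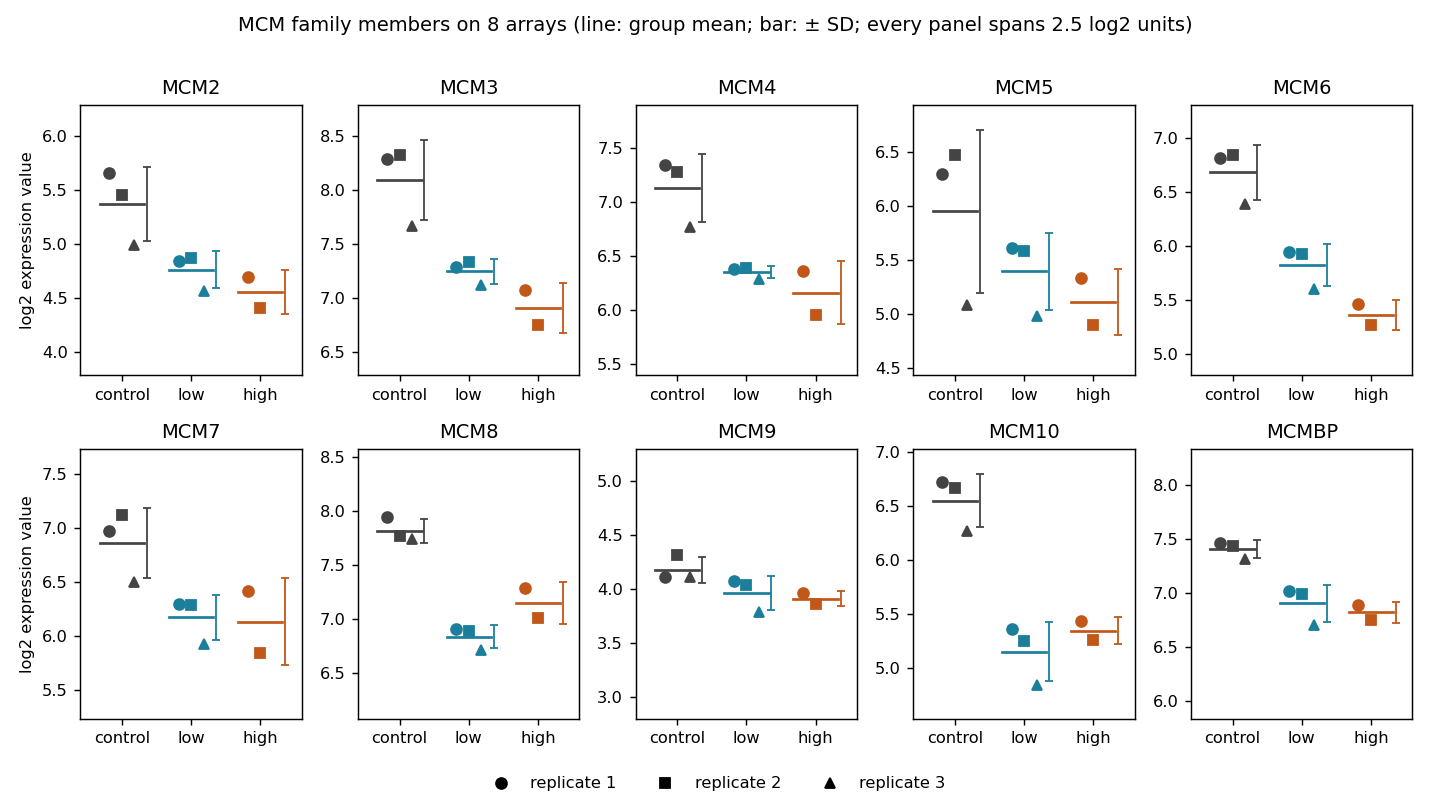
Log2 expression value of each member on every array, by group (control, low, high); lines are group means, bars are ± SD and symbols give the replicate number. Every panel spans the same number of log2 units, and the panels' levels are not comparable with each other. MCM10 shows the widest gap between control and treated arrays, while in MCM5 control 3 lies among the treated arrays.

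Among the subunits of the replicative helicase, MCM6 and MCM3 fell at both doses. MCM6, which is phosphorylated when the helicase is switched on, stood at 6.81, 6.84 and 6.39 in the controls, at 5.94, 5.93 and 5.60 at the low dose and at 5.46 and 5.27 at the high dose. The arrays of the 3 groups did not overlap. Between the doses, however, the difference of -0.46 was not called (adjusted p = 0.564 in limma's test). Every high array lay below every low array in 16.7% of all genes. MCM6 fell by 0.86 ± 0.18 (SE; 3 against 3 arrays; adjusted p = 0.0260) at the low dose, which is 1.81-fold, and by 1.32 ± 0.20 (2 against 3 arrays; adjusted p = 0.0163) at the high dose, which is 2.49-fold. MCM3, the subunit through which the ring first docks on the loading machinery, stood at 8.29, 8.33 and 7.67 in the controls, at 7.29, 7.34 and 7.12 at the low dose and at 7.08 and 6.75 at the high dose. Its groups also did not overlap, although control 3 lay closer to the low arrays than to the other controls. MCM3 fell by 0.85 ± 0.20 (adjusted p = 0.0460) at the low dose and by 1.18 ± 0.22 (adjusted p = 0.0391) at the high dose.

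The other subunits of the ring had lower means without being called, although MCM4 came near the threshold at the low dose. MCM4, whose tail is a main target of the CDC7 kinase, stood at 7.34, 7.28 and 6.77 in the controls, at 6.38, 6.38 and 6.29 at the low dose and at 6.36 and 5.95 at the high dose. Every treated array lay below every control, and the 3 low arrays were nearly alike (SD 0.053 against 0.31 in controls). The change of MCM4 was -0.78 ± 0.19 (adjusted p = 0.0542) and -0.97 ± 0.21 (adjusted p = 0.0682). MCM2, which also carries histones at the fork, stood at 5.66, 5.45 and 4.99 in the controls, at 4.84, 4.87 and 4.56 at the low dose and at 4.70 and 4.41 at the high dose. Treated and control arrays did not overlap, but the gap from low 2 to control 3 was smaller than that between controls 1 and 2. Its change was -0.61 ± 0.20 (adjusted p = 0.151) and -0.82 ± 0.22 (adjusted p = 0.130). MCM7 stood at 6.97, 7.12 and 6.50 in the controls, at 6.29, 6.29 and 5.93 at the low dose and at 6.42 and 5.84 at the high dose. High 1 lay just below control 3, and the 2 high arrays differed from each other more than the low arrays did. The change of MCM7 was -0.69 ± 0.22 (adjusted p = 0.135) and -0.73 ± 0.24 (adjusted p = 0.202).

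MCM5, which with MCM2 forms the gate through which DNA enters the ring, was the subunit whose controls disagreed most. It stood at 6.30, 6.46 and 5.08 in the controls, at 5.61, 5.58 and 4.98 at the low dose and at 5.33 and 4.89 at the high dose. Control 3 lay below 2 of the 3 low arrays and below high 1, so the groups overlapped at both doses. The change was -0.56 ± 0.33 (95% interval -1.28 to 0.17; adjusted p = 0.515) at the low dose and -0.84 ± 0.37 (-1.65 to -0.03; adjusted p = 0.329) at the high dose. Without control 3 it was -0.99 (adjusted p = 0.0350) and -1.27 (adjusted p = 0.0155). Leaving out another control made it smaller. It was -0.38 (adjusted p = 0.759) and -0.66 (adjusted p = 0.593) without control 1. Without control 2 it was -0.30 (adjusted p = 0.805) and -0.58 (adjusted p = 0.616). Control 3 was the lowest control in each of MCM2 to MCM7, and lay from -0.44 (MCM6) to -1.30 (MCM5) against the mean of controls 1 and 2. The same gap was -0.43 in MCM10, -0.12 in MCM8, -0.10 in MCM9 and -0.14 in MCMBP.

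MCM10, the factor of helicase activation, showed the largest drop of the family at the low dose. It stood at 6.72, 6.67 and 6.27 in the controls, at 5.36, 5.25 and 4.84 at the low dose and at 5.43 and 5.26 at the high dose. The lowest control lay well above the highest treated array, and the 2 treated groups overlapped each other. MCM10 fell by 1.40 ± 0.19 (2.64-fold; adjusted p = 0.00338) at the low dose and by 1.20 ± 0.21 (2.30-fold; adjusted p = 0.0288) at the high dose. At the low dose it was called under every alternative run, with adjusted p from 3.46e-05 to 0.0186.

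The MCM8 and MCM9 genes, whose products work as a pair, had unlike values. MCM8 stood at 7.94, 7.77 and 7.74 in the controls, at 6.91, 6.89 and 6.71 at the low dose and at 7.29 and 7.01 at the high dose. Its controls were close together, control 3 included, and the low arrays were the lowest, with the high arrays between them and the controls. MCM8 fell by 0.98 ± 0.15 (1.97-fold; adjusted p = 0.00679) at the low dose and was called there under every alternative run (adjusted p 0.000222 to 0.0364). At the high dose its change was -0.67 ± 0.17 (adjusted p = 0.114). MCM9 stood at 4.11, 4.31 and 4.11 in the controls, at 4.07, 4.04 and 3.78 at the low dose and at 3.96 and 3.86 at the high dose. Its treated arrays lay below the controls, but low 1 was only just below, and the change of -0.21 ± 0.15 (-0.55 to 0.12; adjusted p = 0.619) and -0.27 ± 0.17 (-0.64 to 0.11; adjusted p = 0.502) was the smallest of the family at both doses. The difference between the changes of MCM8 and MCM9 was not tested. HROB, which recruits the pair to DNA and was singled out after its values were seen, had a change of -0.53 ± 0.19 (adjusted p = 0.200) at the low dose and -0.41 (adjusted p = 0.395) at the high dose.

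MCMBP, the chaperone, was among the steadier members. It stood at 7.46, 7.43 and 7.31 in the controls, at 7.02, 6.98 and 6.70 at the low dose and at 6.89 and 6.75 at the high dose. All treated arrays lay below all controls, whose SD was 0.080. Its change was -0.50 ± 0.15 (adjusted p = 0.124) at the low dose and -0.58 ± 0.17 (adjusted p = 0.157) at the high dose, neither called.

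Single arrays decided several of these calls. Without control 3, 8 members were called lower at the low dose (1.85% of all genes) and 7 at the high dose (3.35% of all genes). Without control 1, control 2 or any 1 of the low arrays, 2 members (MCM8 and MCM10) remained called at the low dose, beside 0.769% to 1.16% of all genes. There MCM6 had an adjusted p of 0.105, 0.102, 0.0685, 0.0788 and 0.0863 without control 1, control 2, low 1, low 2 and low 3, and MCM3 had one of 0.161, 0.155, 0.128, 0.125 and 0.136. Without high 1 or high 2, whose arrays enter only the shared spread there, MCM3 had an adjusted p of 0.0636. At the high dose no member was called without control 1 or control 2 (0.0317% and 0.0498% of all genes), and MCM6 alone was called without low 1 or low 2 (0.0950% and 0.127%). Without high 1 or high 2 a single high array is left, so only sizes of change are given. These were -1.42 and -1.22 in MCM6, -1.35 and -1.02 in MCM3, and -1.29 and -1.12 in MCM10. The titles number the replicates without saying that they pair, and same-numbered control and low arrays deviated together only weakly (correlations 0.103, 0.153 and 0.203). Their numbers were used as a block in an alternative fit. With that replicate block over all arrays MCM2 (adjusted p = 0.0476) and MCM4 (adjusted p = 0.0259) joined the calls at the low dose, which made 6 members against 2.61% of all genes. In the paired fit over control and low arrays alone neither did (adjusted p = 0.0830 and 0.0552). There MCM3, MCM6, MCM8 and MCM10 were called, beside 1.40% of all genes called lower.

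**Figure D3:**
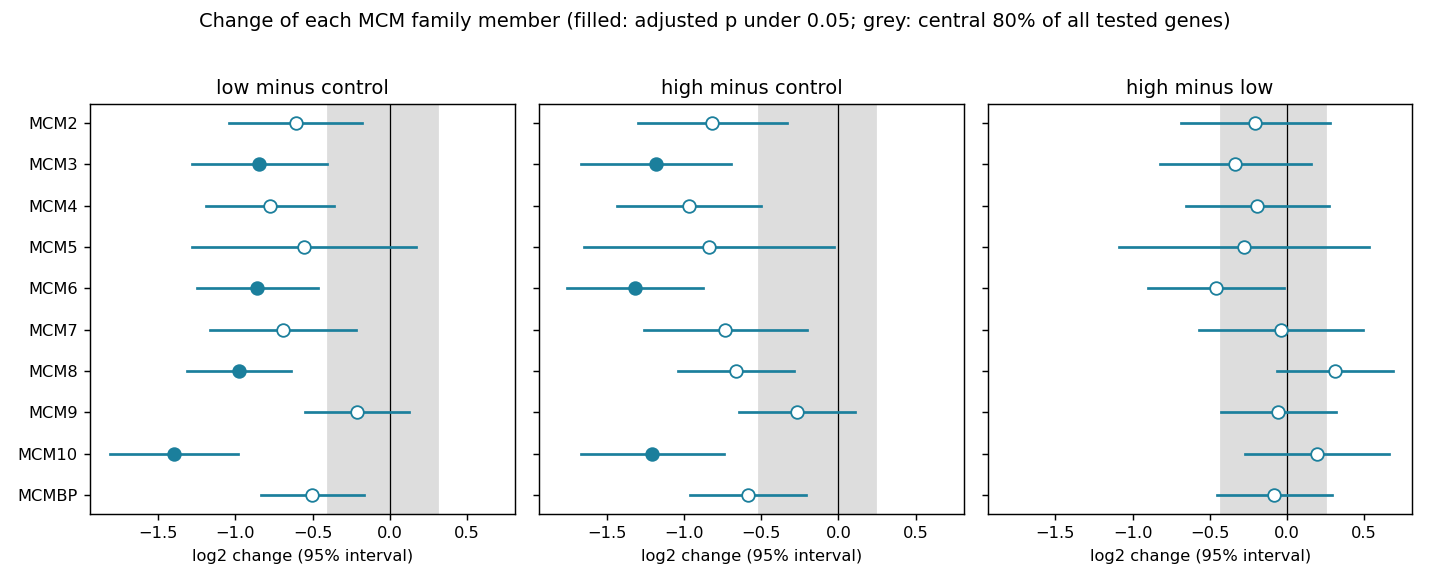
Log2 change of each member with its 95% interval for low minus control, high minus control and high minus low; filled points have an adjusted p under 0.05 in limma and the grey band spans the central 80% of the change over all genes tested. All points lie left of 0 in the first pair of panels, and none is filled in the third.

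No member was called between the 2 doses at an adjusted p under 0.05 in limma's test, where 0.00452% of all genes were; 1 member, MCM6, had an unadjusted p under 0.05. The mean of 8 of 10 members was lower at the high dose, against 61.6% of all genes, and the members' median difference was -0.14 beside -0.07 over all genes. With quantile normalization the members' median difference was -0.0044. MCM6 differed by -0.46 (95% interval -0.90 to -0.02; adjusted p = 0.564) and MCM3 by -0.34 (-0.82 to 0.15; adjusted p = 0.687). In both, every high array lay below every low array, as in 16.7% of all genes. MCM2 differed by -0.21 (-0.69 to 0.28), MCM4 by -0.19 (-0.66 to 0.27) and MCM5 by -0.28 (-1.09 to 0.53). The sign of MCM4 (without high 2) and of MCM7 (without low 1, low 2 or high 2) turned with 1 array left out. Without high 2 the high group was a single array. For MCM7 (-0.038), MCM9 (-0.055) and MCMBP (-0.082) the sign turned when arrays were normalized to each other. MCM8 had a mean difference of 0.31 (-0.06 to 0.69; adjusted p = 0.629) with no overlap of the arrays, as in 8.77% of all genes, and MCM10 one of 0.19 (-0.27 to 0.66; adjusted p = 0.820) with overlap. These intervals reach differences of the size seen against the controls in some members, so like levels at the 2 doses are not shown.

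Set against the ring subunits of the same array, where a shift common to every gene of an array cancels, the other members took different places. The values were each member's difference from its control mean minus the mean such difference of MCM2 to MCM7, and this view was chosen after the levels were seen, so it carries no test. MCM8 was -0.29, -0.31 and -0.17 in the low arrays but 0.26 and 0.36 in the high arrays, while the controls ran from -0.28 to 0.37. The control spread was therefore as wide as the gap between doses. MCM10 was -0.57, -0.69 and -0.77 in the low arrays and -0.33 and -0.13 in the high arrays, with controls between -0.12 and 0.16. It lay below the ring subunits in every treated array, and further below them at the low dose, but high 2 lay close to the lowest control. MCM9 (0.48 to 0.84 in treated arrays) and MCMBP (0.19 to 0.51) lay above the ring subunits in every treated array, with controls reaching 0.38 and 0.36.

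Members' levels followed each other over the 8 arrays. Among MCM2 to MCM7 Pearson's correlation ran from 0.821 (MCM5 with MCM6) to 0.992 (MCM3 with MCM4) in 15 pairs, and over all 45 pairs the lowest was 0.610 (MCM5 with MCM8). MCM8 and MCM10 correlated at 0.971. With the mean of the ring subunits the correlation was 0.816 for MCM8, 0.863 for MCM9, 0.907 for MCM10 and 0.946 for MCMBP. These values describe arrays that share both the groups and the arrays' overall shifts. Of 11045 genes with a mean level at or above the median, those most like the mean of MCM2 to MCM7 were FJX1 (0.993), LOC154449 (0.990), CCN1 (0.989), RPP40 (0.988) and PTDSS1 (0.987).

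Of 33 listed genes of origin licensing, helicase activation and fork partners, 32 were measured, and RECQL4 was not analysed here. The list was chosen with earlier results of these data known, so the shares of all genes beside it only describe. At the low dose the mean of 32 of 32 was lower than in controls (57.4% of all genes), and 28 did not overlap with the controls (13.0% of all genes). The median change was -0.96 beside -0.04 over all genes. Of these genes 20 were called lower and none higher, beside 1.81% of all genes called lower. They were 5 of 9 loading genes, 8 of 12 activation genes and 7 of 11 partners. Loading genes that fell included CDC6, which brings MCM rings to origins (-1.17 ± 0.21; adjusted p = 0.0134), ORC6 of the origin recognition complex (-0.96 ± 0.20; adjusted p = 0.0288) and GMNN, the inhibitor of CDT1 (-1.16 ± 0.18; adjusted p = 0.00679). Activation genes included CDC7, the kinase of MCM2, MCM4 and MCM6 (-1.52 ± 0.16; adjusted p = 0.00126), and the GINS subunits GINS4 (-1.27 ± 0.16; adjusted p = 0.00255) and GINS1 (-1.10 ± 0.15; adjusted p = 0.00414). Among partners were MMS22L, which acts in repair of stalled forks (-1.32 ± 0.19; adjusted p = 0.00468), TIMELESS of the fork protection complex (-1.07 ± 0.17; adjusted p = 0.00723) and TRAIP, a ubiquitin ligase of MCM7 in unloading (-0.95 ± 0.16; adjusted p = 0.0106).

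At the high dose the mean of 31 of these 32 genes was lower than in controls (67.4% of all genes), and 25 did not overlap with the controls (22.9% of all genes). The median change was -0.69 beside -0.12 over all genes. Of these genes 6 were called lower and none higher, beside 0.389% of all genes called lower. They were CDC6 (-1.37 ± 0.24; adjusted p = 0.0277), DONSON, which helps to bring GINS to the ring (-1.06 ± 0.17; adjusted p = 0.0209), GINS1 (-0.93 ± 0.17; adjusted p = 0.0371), GINS4 (-0.92 ± 0.17; adjusted p = 0.0415), MMS22L (-1.25 ± 0.21; adjusted p = 0.0258) and CDC7 (-0.92 ± 0.18; adjusted p = 0.0456). GMNN (-0.72; adjusted p = 0.145), ORC6 (-0.65; adjusted p = 0.227), TIMELESS (-0.71; adjusted p = 0.128) and TRAIP (-0.57; adjusted p = 0.192) were not called. None of the 32 was called between doses, with a median difference of 0.18, on the other side of 0 from the members' -0.14. Without 1 array in turn the low dose count ran from 10 (without low 2, where 0.769% of all genes were called lower) to 20. It was 13 without control 1 (0.963% of all genes), 12 without control 2 (1.16%) and 13 without low 3 (0.850%). The high dose count was 0 without control 1 or control 2 (0.0317% and 0.0498% of all genes). It was 1 without low 1 (0.0950%), 3 without low 2 (0.127%) and 14 without control 3 (3.35%), so it moved with the calls over all genes.

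**Figure D4:**
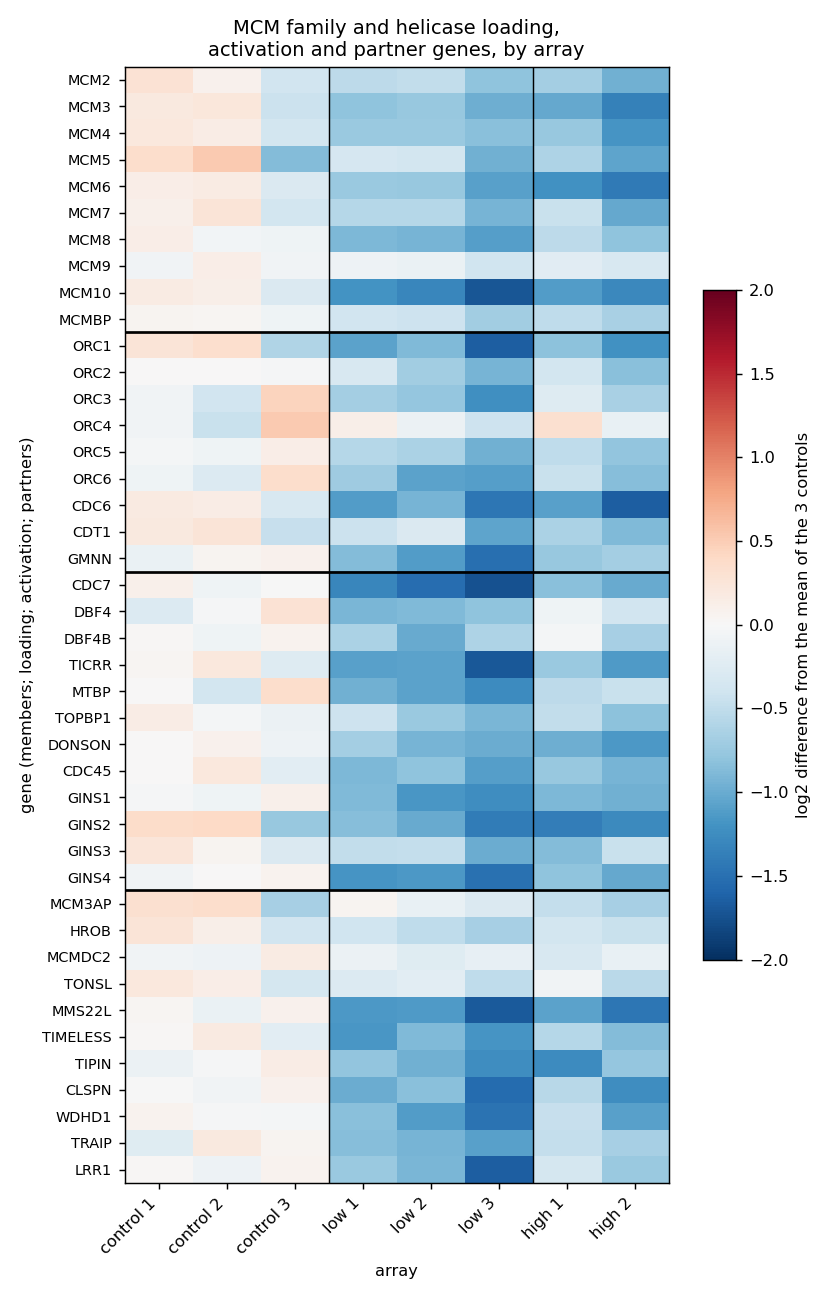
Log2 difference of each array from the mean of the 3 controls, for the 10 members and 32 genes of licensing, activation and fork partners; blue is below and red above the controls. Most rows are blue in the 5 treated arrays, and control 3 is blue in MCM2 to MCM7 while it is red in several other rows, ORC4 among them.

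Of the markers of dividing cells, PCNA, MKI67 and TOP2A fell at the low dose and PCNA at the high dose. PCNA, the sliding clamp of replication, stood at 8.21 to 8.34 in the controls, 7.14 to 7.37 at the low dose and 7.41 and 7.48 at the high dose, so that treated and control arrays did not overlap. It fell by 1.00 ± 0.14 (adjusted p = 0.00466) at the low dose and fell by 0.82 ± 0.16 (adjusted p = 0.0444) at the high dose. MKI67, the proliferation antigen, fell by 1.22 ± 0.16 (adjusted p = 0.00327) at the low dose, and its change was -0.60 (adjusted p = 0.164) at the high dose. TOP2A, a topoisomerase made before mitosis, fell by 1.65 ± 0.25 (adjusted p = 0.00655) at the low dose, and its change was -0.36 (adjusted p = 0.605) at the high dose. Control 3, the lowest control in the ring subunits, was the highest in TOP2A, at 9.85 beside 8.96 and 8.76. The part of the share of dividing cells in the levels of the MCM genes was not tested.

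MCM7 hosts the microRNA genes MIR106B, MIR93 and MIR25 within its introns. Their mature products are shown with the seed, bases 2 to 8, in capitals, because the seed sets which messages a microRNA binds and here joins a pair of them. The sequences and positions are RefSeq's on GRCh38.p14.

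hsa-miR-106b-5p, chr7:100094043-100094063, minus strand: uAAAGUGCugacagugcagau
hsa-miR-93-5p, chr7:100093815-100093837, minus strand: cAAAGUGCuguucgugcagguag
hsa-miR-25-3p, chr7:100093571-100093592, minus strand: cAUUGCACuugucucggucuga

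The first pair share the seed AAAGUGC, while miR-25 carries AUUGCAC. The array rows are for the hairpin genes and do not measure the mature forms. MIR106B stood at 3.96, 3.89 and 2.88 in the controls, at 3.48, 3.50 and 3.17 at the low dose and at 3.27 and 2.48 at the high dose. MIR25 stood at 4.10, 4.34 and 3.40, then at 3.77, 3.57 and 3.35, then at 3.18 and 3.32. In both, control 3 was far below the other controls, as in MCM7. MIR93 showed no such step, with all arrays between 2.74 and 3.48. None was called: the change was -0.19 and -0.70 for MIR106B (adjusted p = 0.862 and 0.359), -0.39 and -0.70 for MIR25 (adjusted p = 0.524 and 0.250), and -0.059 and -0.13 for MIR93 (adjusted p = 0.949 and 0.839), at the low and the high dose.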

How the data were processed

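Total RNA of 8 samples was measured on 1 array each. The values are log2 expression values deposited by the authors. The Transcriptome Analysis Console was used per the submitters' processing notes. Its version is not given in the sources used here, nor is how probes were summarized or normalized. The base of the logarithm was inferred from the range of values (-0.00278 to 12.10). Of 53617 rows, 23558 carried 1 symbol, 2155 several and 27904 were unnamed here. Symbols came from the platform annotation, 22271 matched a RefSeq gene by Entrez identifier and 3 were updated. For 618 genes with several rows the one with the highest mean was kept, which left 22109 genes.

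Values were used as deposited. The 3 group means were estimated together from all arrays in limma 3.58.1 under R 4.3.3 (lmFit, contrasts.fit and eBayes; 5 residual and 6.0 prior degrees of freedom). Tests were two-sided, with p-values adjusted over all genes by Benjamini-Hochberg and a call at an adjusted p under 0.05. The scripts were tested on simulated data. The number of arrays limits the precision. The members and gene lists were chosen with earlier results of these data known. Every member is named, with up to 3 called genes per role of the pathway list by smallest p, the 5 genes most correlated with the mean of MCM2 to MCM7, and MKI67, PCNA and TOP2A. CDC7 at the high dose, HROB, ORC4, RECQL4, the line markers, the microRNA genes and the neighbouring genes were named outside this rule.

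Same-numbered control and low arrays deviated together weakly from their group means (correlations 0.103, 0.153 and 0.203). The numbers were therefore tried as a pairing of these groups, although no label states one. For high arrays the correlations had both signs, with controls (0.094 and -0.049) and with low arrays (0.214 and -0.177). Alternatives were quantile normalization, subtracted medians, a filter at the median level, array weights, the replicate block, the 2 compared groups alone, trend and robust settings, the mean over a gene's rows, and arrays left out. Promoter and microRNA sequences are RefSeq's on GRCh38.p14, searched in Python 3.11.15.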

Additional observations from a re-analysis of the deposited data

How the results depend on the processing

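Every member had a lower mean than the controls in all 18 alternatives at the low dose and all 17 at the high dose, and no member was called higher in any. The number of members called lower, 4 in the reported fit at the low dose, was 9 with array weights (4.95% of all genes called lower under that setting, against 1.81% in the reported fit), 8 without control 3, low 3 and high 2 together (2.72%), and 2 to 8 with 1 array left out (0.769% to 1.85%). At the high dose (3 reported) it was 8 with array weights (3.48% of all genes, against 0.389%), 9 with the replicate block (4.66%) and 0 with only the 2 groups compared (0.0407%). It was 0 to 7 with 1 control or low array left out (0.0317% to 3.35%). Fits without high 1 or high 2 leave a single high array, so their counts are not given. They remain among the 17 alternatives. Calls over all genes at this dose thus rose and fell with those of the members. The block ties arrays by replicate numbers that are not known to pair them. For the pathway list at the high dose (6 reported) the count was, under the same shares of all genes, 15 with array weights and 16 with the replicate block. It was 0 with only the 2 groups compared, 3 with trend and robust settings (0.312%) and 0 to 14 with 1 control or low array left out. At the low dose (20 reported) it was 10 to 20 with 1 array left out. The members' median change ran from -0.97 (without control 3) to -0.63 at the low dose and from -1.08 (without control 3) to -0.65 at the high dose with 1 array left out. Relative to the median of all genes, an alternative chosen after seeing the data like the paired fit over control and low arrays alone, it was -0.69 and -0.71. With quantile normalization the high dose change was smaller in every member. It was -1.10 in MCM6 and -0.99 in MCM3 and in MCM10, each still called. MCM4 had -0.76, MCM5 -0.64, MCM2 -0.61, MCM7 -0.52, MCM8 -0.49, MCMBP -0.38 and MCM9 -0.08, none of them called. MCM8 and MCM10 were called in all 18 alternatives at the low dose, MCM6 in 13, MCM3 in 10 and MCM4 in 7. MCM2 was called in 4, MCM5 and MCM7 in 3 each, MCMBP in 1 and MCM9 in 0. These alternatives are not all distinct at that dose. The fits of the 2 groups alone, without high 1 and without high 2 gave the members the same adjusted p. The mean over a gene's rows left the members' values unchanged, since each had 1 row. At the high dose MCM6 was called in 12 of 17, and MCM10 and MCM3 in 10 each. Between doses no member was called in any alternative. The difference kept its sign in all 17 for MCM2, MCM3, MCM5 and MCM6 (lower at the high dose) and for MCM8 and MCM10 (higher). With 1 array left out it ran from -0.40 (without high 1) to 0.013 (without high 2) for MCM4 and from -0.33 to 0.25 for MCM7. For MCM7 it turned to 0.092 with quantile normalization, 0.048 with medians subtracted, 0.024 without low 1, 0.021 without low 2, 0.25 without high 2 and 0.13 without the 3 arrays together. With quantile normalization and with medians subtracted it turned to 0.085 and 0.031 for MCM9, and to 0.049 and 0.0041 for MCMBP. The cause of these shifts was not tested.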

Other observations

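Beside the microRNA genes of MCM7, RefSeq places 7 measured genes within 1000 bases of 6 members, and their values were read after those of the members, so none is tested as a group. PRKDC, which encodes the catalytic subunit of a DNA repair kinase and shares a start region with MCM4, stood at 7.54, 7.46 and 7.07 in the controls, at 6.92, 6.85 and 6.54 at the low dose and at 7.03 and 6.34 at the high dose. All its treated arrays lay below the controls, but it was not called (-0.59, adjusted p = 0.209, and -0.67, adjusted p = 0.227). TRMT6, a tRNA methyltransferase subunit beside MCM8, stood at 6.71, 6.53 and 6.93 in the controls, at 6.09, 6.11 and 5.56 at the low dose and at 6.68 and 6.33 at the high dose. Like MCM8 it was lowest at the low dose, with a change of -0.80 (adjusted p = 0.0572) there and -0.22 (adjusted p = 0.699) at the high dose. ASF1A, a histone chaperone beside MCM9, stood at 5.44, 5.43 and 6.46 in the controls, at 4.97, 5.01 and 4.54 at the low dose and at 5.44 and 5.51 at the high dose, and here control 3 was the highest array. Its change was -0.94 (adjusted p = 0.0923) at the low dose. INPP5F, a phosphatase gene beside MCMBP, had a change of -0.73 (adjusted p = 0.0814) and -0.55 (adjusted p = 0.279). TPRA1 beside MCM2 had values of 0.28 and -0.13 at the 2 doses, on either side of 0. COPS6 and AP4M1 beside MCM7 had -0.41 and -0.020 at the low dose. None of these genes was called at either dose in limma's test.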
